A study of Homo sapiens with 61 samples.

Results

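The genes described are the protein-coding genes of sodium, calcium, potassium and hyperpolarisation-activated (HCN) channels, taken by symbol: SCN genes ending in a number and A or B, CACNA, CACNB and CACNG genes, KCN genes with a number, and the HCN genes. The rule found 140 genes, 14 of sodium, 26 of calcium, 96 of potassium and 4 of HCN channels. Of these, 112 passed the filter on low counts in at least 1 of the 2 experiments, among 22067 genes that passed it overall. In experiment 1, 100 channel genes were tested, and in experiment 2, 110. The symbols reach beyond voltage-gated pores: they also take 15 leak-type K2P potassium channels, 16 inward rectifiers, 4 calcium-activated SK and IK channels and 2 sodium-activated channels, which are not classed as voltage-gated, and the auxiliary subunits of each family. Several of the 8 CACNG genes, CACNG3 and CACNG4 among them, encode proteins best known as partners of AMPA-type glutamate receptors. These are included because the rule takes them, and families are named for many of the genes below.

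RNA was sequenced from neurons made by driving NGN2 in WTC11, a widely used human pluripotent stem cell line. Experiment 1 had 4 lines, each carrying a doxycycline-inducible NGN2 cassette: wild type (WT), a knockout (KO) of DLK (gene MAP3K12), a knockout of LZK (gene MAP3K13) and a DLK LZK double KO, with 4 libraries per line and treatment. Experiment 2 used WTC11 neurons with the CRISPR interference machinery and a lentiviral guide RNA (gRNA): a scrambled control (Control gRNA), ATF2 gRNA or JUN gRNA, with 5 libraries per group except 4 for ATF2 gRNA with vincristine. At day 14 each of the 14 groups had received 16 hours of vincristine at 5 nM or of the vehicle DMSO, vincristine being a chemotherapy agent that blocks microtubule assembly. The vehicle groups are called untreated, as labelled. DLK and LZK are kinases that signal axon damage, and ATF2 and JUN are transcription factors downstream of such signalling. Whether each knockout line is 1 clone is not given in the sources used here, so a difference between lines cannot be told apart from a difference between clones. No label ties the libraries to separate differentiations, so p-values measure the spread between these samples, which may be technical.

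A voltage-gated sodium channel opens on depolarisation and starts the action potential, while voltage-gated potassium channels repolarise the membrane and set how fast a neuron can fire. Calcium channels turn depolarisation into transmitter release and gene regulation, and HCN channels open on hyperpolarisation and carry a depolarising current. Each pore works with auxiliary subunits that set its surface level and gating, and a neuron's firing depends on the mix of pores and auxiliary subunits it makes.

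To show sequences that lie before annotated starts of these genes, the 250 bases upstream of each RefSeq start were read from promoter windows on GRCh38.p14. Of the 140 genes, 100 had a window, as did 38 of the 53 genes called with vincristine in WT or Control gRNA. The windows were searched on both strands for the AP-1 letters TGANTCA, which JUN dimers are known to bind, and for the CRE letters TGACGTCA, known to be bound by dimers that hold ATF2. Both motifs read the same on either strand, and the letters of a match cannot belong to both. TGANTCA stood in 7.24% of the 152 channel gene windows and in 6.57% of all 35116 windows. Among the 74 windows of channel genes called with vincristine it stood in 8.11%, in 6 genes. TGACGTCA stood in 0.658% of channel gene windows, in 1 gene (KCNF1), and in 1.65% of all windows. A match is a stretch of letters and not a measured binding site. A RefSeq start need not be the start of the gene as counted. Of the stretches printed here, that of KCNA3 lies outside the span counted for it (chr1:110672465-110675033), and the others lie inside theirs. The stretches of the 6 genes are printed 5′ to 3′ on the gene's strand with the AP-1 letters in capitals. These are the called genes with those letters before a RefSeq start, and the stretches are listed next. They are, in order, KCNN3 at chr1:154859877-154859929 (minus strand), KCNA3 at chr1:110671905-110671964 (minus), KCNAB1 at chr3:156142734-156142793 (plus), KCNMB3 at chr3:179251299-179251358 (minus), KCNIP4 at chr4:21697802-21697861 (minus) and KCNMA1 at chr10:77350862-77350921 (minus), which holds the letters at 2 places.
KCNN3: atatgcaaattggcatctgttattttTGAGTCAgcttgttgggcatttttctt
KCNA3: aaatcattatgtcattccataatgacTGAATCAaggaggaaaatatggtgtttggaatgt
KCNAB1: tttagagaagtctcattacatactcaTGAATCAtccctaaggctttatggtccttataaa
KCNMB3: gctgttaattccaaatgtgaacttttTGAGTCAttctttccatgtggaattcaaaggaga
KCNIP4: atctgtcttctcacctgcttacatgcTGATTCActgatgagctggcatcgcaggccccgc
KCNMA1: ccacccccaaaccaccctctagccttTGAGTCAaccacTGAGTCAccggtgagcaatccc
The 6 genes did not share a direction with vincristine: KCNN3 fell, while KCNA3, KCNAB1, KCNMB3, KCNIP4 and KCNMA1 rose in at least 1 control line. The calls of KCNA3, KCNMB3 and KCNIP4 were lost in some alternative fits, that of KCNIP4 (0.58 ± 0.15 in WT) in a fit of these groups alone, at 0.56.

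Libraries of experiment 1 held 8.41 to 14.6 M counts (M, mega) and those of experiment 2 held 38.9 to 88.4 M, so a gene of low level rests on fewer counts in experiment 1, and the experiments' numbers of calls were not compared. The lowest correlation between libraries of a group was 0.975. MAP3K12 was 91.0 ± 2.2 CPM (counts relative to the TMM-scaled library size; SD, n = 4) in untreated WT and 26.3 ± 2.5 in untreated DLK KO. MAP3K13 was 99.1 ± 1.9 in WT and 31.9 ± 2.0 in LZK KO. ATF2 was 129 ± 19 (n = 5) in untreated Control gRNA and 0.526 ± 0.29 in ATF2 gRNA, and JUN was 88.5 ± 7.0 and, in JUN gRNA, 2.87 ± 0.45. A list of 7 neuron markers summed to between 2783 and 5004 CPM in every group. The progenitor list of 5 markers, mostly NES, summed to 784 to 828 CPM in untreated WT and 1060 to 2102 with vincristine, and to 1327 to 1419 and 2562 to 2657 in Control gRNA. POU4F1, a factor of sensory neurons, was 434.9 CPM in untreated WT and 177.4 with vincristine, and 480.6 and 202.8 in Control gRNA. In untreated WT it made up most of a list of 6 peripheral neuron markers, which summed to 429 to 462 CPM, with PRPH at 2.84. SCN10A, also listed, was under 0.1 CPM in untreated Control gRNA. The labels of experiment 1 call its neurons cortical. Astrocyte markers summed to 5.46 CPM at most. The vincristine library of WT replicate 4 stood apart for several channel genes: KCNC1 was 22.9 CPM there and 35.5 to 39.0 in the other 3. In bulk RNA, fewer cells of a type and less RNA per cell cannot be told apart, and the part of these marker levels in the channel results was not tested.

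Between genes, levels were compared as CPM per kilobase of the counted length. That length differed widely between related genes: 23695 bases for SCN2A and 9840 for SCN3A, and 43159 for CACNA1A and 9897 for CACNA1B. The ranks and shares given here depend on it. Of the 14 sodium channel genes, 4 carried 87.3% of the summed sodium channel level in untreated WT and 91.9% in untreated Control gRNA. SCN3A, an alpha subunit prominent in fetal brain, was 40.6 ± 1.0 CPM per kb (SD, n = 4) in WT and 18.8 ± 2.4 (n = 5) in Control gRNA. SCN3B, a beta subunit that modifies gating, was 23.7 ± 1.6 and 28.6 ± 0.85. SCN9A, SCN2A and SCN8A, the other main pores, followed at 20.4 ± 1.1, 10.3 ± 0.29 and 8.56 ± 0.36 in WT. In Control gRNA SCN8A was 9.96 ± 0.76, SCN9A 5.30 ± 0.66 and SCN2A 2.66 ± 0.25, so the order of the last 3 pores differed between the experiments. SCN2A and SCN3A overlap on opposite strands, and the strand setting of the counting is not given in the sources used here, so their counts may share reads.

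Calcium channel levels summed to 222 CPM per kb in WT and 243 in Control gRNA, and potassium channel levels to 220 and 259. In WT the highest calcium channel genes were CACNG4, a gamma subunit, at 44.4 ± 1.4 CPM per kb and CACNA2D1 at 43.6 ± 0.95. These 2 did not differ beyond their spread. CACNA2D1 is an alpha2delta subunit, which carries channels to the membrane. CACNG7, also a gamma subunit, followed at 24.7 ± 1.7 and CACNA1B, the pore of N-type channels that trigger transmitter release, at 20.3 ± 1.3. Control gRNA had CACNG4 at 63.1 ± 1.2, CACNG7 at 53.1 ± 1.9, CACNA2D1 at 26.2 ± 3.0 and the beta subunit CACNB3 at 24.4 ± 0.72. The potassium channel level was spread over more genes: the highest 4 carried 33.2% in WT and 35.9% in Control gRNA. Among the highest were KCNH7 (an ERG channel) at 21.8 ± 1.5, KCNB2 (delayed rectifier) at 20.9 ± 0.84 and KCND2 (A-type) at 13.5 ± 0.53 CPM per kb in WT. In Control gRNA they included the A-type partners KCNIP1 (23.0 ± 1.8) and KCNIP2 (19.3 ± 0.79) and the ERG channel KCNH2 (16.5 ± 0.94). HCN channels were led by HCN3 in both experiments, at 11.8 ± 0.65 and 16.5 ± 0.59, with HCN4 at 9.03 ± 0.32 and 10.2 ± 0.31 and HCN2 at 8.48 ± 0.34 and 13.7 ± 0.94. HCN3 overlaps CLK2 and PKLR on the other strand, so its level and its changes may include reads of those genes. The plot of levels by ion shows these ranks.

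**Figure D1:**
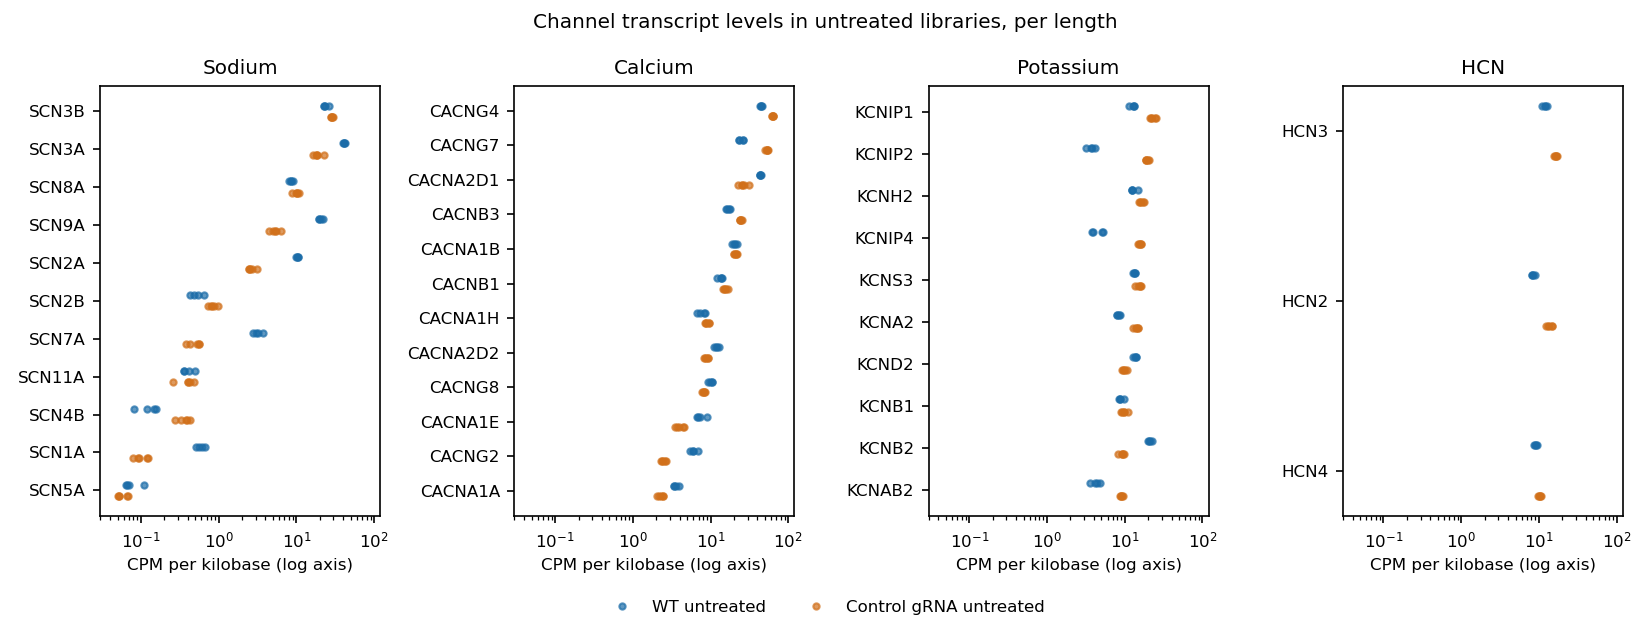
Level of genes reported here among the 12 highest of each ion in Control gRNA (3 for HCN) in untreated WT and untreated Control gRNA, as CPM per kilobase on a log axis. In WT, SCN3A was highest among sodium channel genes at 40.6 CPM per kb and HCN3 among the HCN genes shown at 11.8.

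With vincristine, KCNA1, KCNK12, KCNG1, CACNG3 and SCN7A rose in both WT and Control gRNA, and KCNJ12, KCNN3 and KCNJ3 fell in both. A gene was called changed where edgeR's quasi-likelihood test gave an adjusted p under 0.05. In WT 18 of 100 channel genes rose and 15 fell, 33 in all, where 30.2% of all genes tested were called, 15.7% higher and 14.5% lower. In Control gRNA 25 of 110 rose and 24 fell, 49 in all, where 35.3% of all genes tested were called, 17.1% higher and 18.1% lower. The median log2 fold change was -0.09 over the channel genes of WT and -0.00 over all genes. Libraries of the 2 groups did not overlap for 29 of the WT channel genes (25.0% of all genes) and for 47 of the Control gRNA genes (28.9% of all genes). Among the 98 channel genes tested in both experiments, 16 rose in both, 13 fell in both and 0 were called in opposite directions. These 29 genes were 87.9% of the WT calls and 59.2% of the Control gRNA calls, where over all genes the same shares were 68.5% and 52.2%. WT and Control gRNA share no libraries. The scatter of the 2 effects shows both values of each gene.

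**Figure D2:**
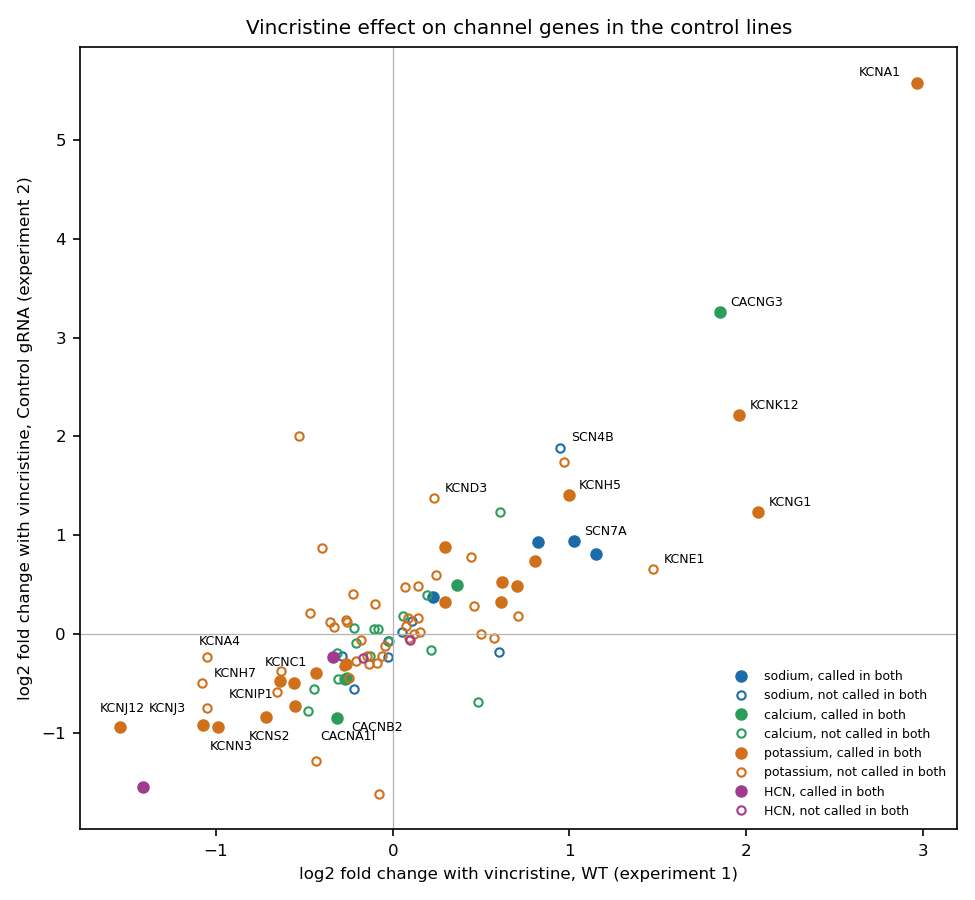
Vincristine effect on each channel gene in WT (x axis) and in Control gRNA (y axis), as log2 fold change, in colour by ion, with filled points called in both. The 16 genes called higher in both and the 13 called lower in both lie in opposite corners of the plot, and 0 genes were called in opposite directions.

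In the sodium channel family, 4 genes rose in WT and 0 of 12 fell (15.7% and 14.5% of all genes), the pores SCN9A, SCN7A and SCN11A among the risers. Control gRNA had 5 rising, these 3 and SCN4B among them, and 1 falling, SCN8A (17.1% and 18.1% of all genes). SCN7A (chr2:166403573-166494326, minus strand, GRCh38), an atypical sodium channel linked to sensing sodium rather than voltage, was 29.1, 25.0, 27.9 and 33.6 CPM in the untreated WT libraries and 54.7, 49.9, 62.6 and 67.5 with vincristine. The groups did not overlap, and its log2 fold change was 1.02 ± 0.13 (SE; adjusted p = 8.2e-08). In Control gRNA it was 5.01, 3.41, 4.79, 5.11 and 3.93 CPM untreated and 8.30, 6.92, 10.3, 8.09 and 9.29 with vincristine, again apart, at 0.94 ± 0.16 (adjusted p = 1.2e-05). SCN11A, a pore of pain-sensing neurons, rose by 0.82 ± 0.20 in WT and 0.93 ± 0.16 in Control gRNA. The abundant SCN9A rose by 0.23 ± 0.073 (adjusted p = 0.016) and 0.37 ± 0.093, a WT call that was lost without untreated replicate 3, at 0.20, without the filter on low counts, at 0.22, and in a fit of these groups alone, at 0.21. SCN4B, a beta subunit, was 2.12, 1.53, 1.86, 2.45 and 2.19 CPM in untreated Control gRNA and 6.89, 6.73, 8.21, 7.46 and 8.39 with vincristine, at 1.89 ± 0.25 (adjusted p = 3.6e-08), and was not called in WT (0.95 ± 0.43). The main brain pores SCN2A and SCN3A were not called in either line (SCN2A 0.11 ± 0.08 and 0.13 ± 0.11, SCN3A -0.02 ± 0.07 and -0.07 ± 0.08).

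Of the calcium channel pores, 0 of 8 alpha1 genes were called in WT (30.2% of all genes), 2 of them having an unadjusted p under 0.05. In Control gRNA 1 rose and 2 fell (17.1% and 18.1% of all genes). There CACNA1A, the P/Q-type pore, fell by 0.44 ± 0.05 (adjusted p = 4.7e-10). In WT all 4 calcium channel genes called encode auxiliary subunits. CACNG3 (chr16:24255553-24362801, plus strand), a gamma subunit that partners AMPA receptors, was 2.96, 3.45, 1.97 and 1.79 CPM in untreated WT and 8.10, 9.44, 8.61 and 10.5 with vincristine. It was 0.395, 1.03, 0.266, 0.368 and 0.145 CPM in untreated Control gRNA and 4.37, 4.33, 3.75, 4.29 and 3.50 with vincristine. Every treated library lay above every untreated library of its line, at 1.85 ± 0.23 (adjusted p = 4.4e-08) in WT and 3.26 ± 0.37 (adjusted p = 1.2e-09) in Control gRNA. CACNA2D1 rose by 0.36 ± 0.054 and 0.50 ± 0.092, and CACNB2, a beta subunit, fell by 0.31 ± 0.10 (adjusted p = 0.017) and 0.85 ± 0.14. Its WT call was lost without untreated replicate 3 or vincristine replicate 1 or 2 (-0.28 to -0.25) and in a fit of these groups alone, at -0.32. CACNG7 fell by 0.27 ± 0.089 (adjusted p = 0.02) and 0.45 ± 0.044. The WT call was lost without untreated replicate 2 or 3 or, at -0.15, vincristine replicate 4, and in a fit of these groups alone, at -0.28. In vincristine-treated WT it was 42.3 CPM in replicate 4 and 61.6 to 64.0 in the other 3 libraries, against 64.7 to 73.7 untreated.

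Among potassium channels 12 of 63 rose and 11 fell in WT (15.7% and 14.5% of all genes). In Control gRNA 17 of 71 rose and 13 fell (17.1% and 18.1% of all genes). The largest rise in both lines was in KCNA1 (chr12:4909893-4918256, plus strand), the Kv1.1 pore of axons, which dampens firing. It was 0.191, 0.746, 0.492 and 0.795 CPM in untreated WT and 4.05, 5.13, 5.04 and 3.23 with vincristine, a log2 fold change of 2.97 ± 0.30 (adjusted p = 5.1e-10). In untreated Control gRNA it was 0.0415, 0.317, 0.0148, 0 and 0.0362 CPM, and 3.52, 3.81, 3.34, 2.54 and 4.10 with vincristine. These untreated libraries hold at most 12 counts, so the fitted value of 5.58 ± 0.49 (adjusted p = 1.4e-12) rests mainly on replicate 2, without which it was 7.10. KCNK12 (chr2:47516581-47570939, minus strand), a K2P family member with no voltage sensor, was 1.62, 2.52, 1.40 and 0.993 CPM in WT and 7.80, 5.76, 7.74 and 4.10 with vincristine. In Control gRNA it was 4.86, 7.51, 6.16, 5.00 and 4.44 CPM and then 25.3, 25.7, 26.1, 26.5 and 25.9. It rose by 1.96 ± 0.26 (adjusted p = 2.4e-07) and 2.21 ± 0.14 (adjusted p = 3e-17), with no overlap of the groups in either line. Its counts may include reads from the other strand, where it overlaps another gene.

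KCNG1 and KCNH5 also rose in both lines. KCNG1 (chr20:51003656-51023129, minus strand), a silent subunit that alters Kv2 pores, was 1.34, 1.12, 1.97 and 1.69 CPM in untreated WT and 7.29, 6.38, 7.82 and 4.53 with vincristine. It rose by 2.07 ± 0.25 (adjusted p = 2.9e-08) in WT and 1.24 ± 0.14 (adjusted p = 8e-10) in Control gRNA. KCNH5 (chr14:62699454-63102037, minus strand), an EAG-type pore, was 8.22, 6.71, 6.81 and 6.76 CPM and then 12.8, 14.8, 14.9 and 14.2 in WT, a rise of 1.00 ± 0.11 (adjusted p = 8.5e-09), and rose by 1.41 ± 0.19 in Control gRNA. The A-type pore KCND3 was called in Control gRNA, where it was 12.0, 11.1, 12.1, 11.6 and 10.6 CPM untreated and 31.2, 29.2, 30.4, 29.2 and 28.9 with vincristine, at 1.37 ± 0.093 (adjusted p = 8.1e-17). In WT its log2 fold change was 0.23 ± 0.13 (adjusted p = 0.2), and the difference between the experiments was not tested. KCNE1, a small subunit whose copy KCNE1B is almost identical, rose by 1.47 ± 0.30 in WT at 0.373 to 1.15 CPM untreated, and its counts may be split between the copies. KCNMA1, the BK channel pore that couples calcium to potassium efflux, rose by 0.30 ± 0.07 in WT (its libraries overlap, and a fit of these groups alone lost the call, at 0.28) and 0.89 ± 0.09 in Control gRNA.

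The potassium channel genes that fell in both lines included an SK channel, 2 inward rectifiers, a silent subunit and an A-type partner. KCNN3 (chr1:154697455-154870280, minus strand), an SK channel that carries the afterhyperpolarisation, was 24.5, 28.3, 25.9 and 24.2 CPM in untreated WT and 13.6, 13.7, 14.3 and 10.0 with vincristine. In Control gRNA it was 25.0, 16.8, 22.0, 20.3 and 22.6 CPM and then 11.1, 11.4, 12.4, 11.0 and 9.81. It fell by 0.99 ± 0.10 (adjusted p = 2.6e-10) and 0.94 ± 0.10 (adjusted p = 8.8e-11), with no overlap in either line. KCNJ12 (chr17:21376197-21419872, plus strand), an inward rectifier whose near copy KCNJ18 may share its reads, was 5.45, 4.29, 4.64 and 4.37 CPM in WT and 1.62, 1.71, 1.83 and 1.19 with vincristine. It fell by 1.54 ± 0.17 (adjusted p = 6.4e-09) in WT and by 0.94 ± 0.24 (adjusted p = 0.0018) in Control gRNA. KCNJ3, a G-protein-gated inward rectifier, fell by 1.07 ± 0.16 and 0.92 ± 0.21, the silent subunit KCNS2 by 0.72 ± 0.12 and 0.84 ± 0.07, and KCNIP1, an A-type partner, by 0.55 ± 0.07 and 0.73 ± 0.05. KCNS2 lies across STK3 on the other strand, and its counts may include STK3 reads. The KCNJ3 libraries overlapped in Control gRNA. KCNC1, a Kv3 pore of fast-firing neurons, fell by 0.56 ± 0.12 and 0.50 ± 0.053. KCNA4, a Kv1 pore that inactivates quickly, was 5.45, 5.68, 4.14 and 4.97 CPM in untreated WT and 3.24, 1.62, 2.87 and 1.94 with vincristine, which do not overlap, at -1.05 ± 0.21 (adjusted p = 0.00017), and was not called in Control gRNA (-0.23 ± 0.38). Of the M-current genes, KCNQ3 fell in WT by 0.35 ± 0.11 (adjusted p = 0.014), a call lost without vincristine replicate 4 at -0.24 and in a fit on these groups alone at -0.37. KCNQ5 was not called in either line, nor was KCNQ1, tested in experiment 2 only. Of the 10 inward rectifiers tested in WT, 0 rose and 2 fell (15.7% and 14.5% of all genes).

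Of the HCN pores, HCN3 fell by 0.34 ± 0.11 (adjusted p = 0.013) in WT and 0.23 ± 0.06 in Control gRNA, a WT call that was lost without vincristine replicate 4, at -0.22, and in a fit of these groups alone, at -0.35. HCN2 fell in Control gRNA by 0.24 ± 0.06, and HCN4 was called in neither line. Without vincristine replicate 4, 35 channel genes were called in WT, 23 higher and 12 lower. The plot by library shows the genes with the largest changes in every group.

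**Figure D3:**
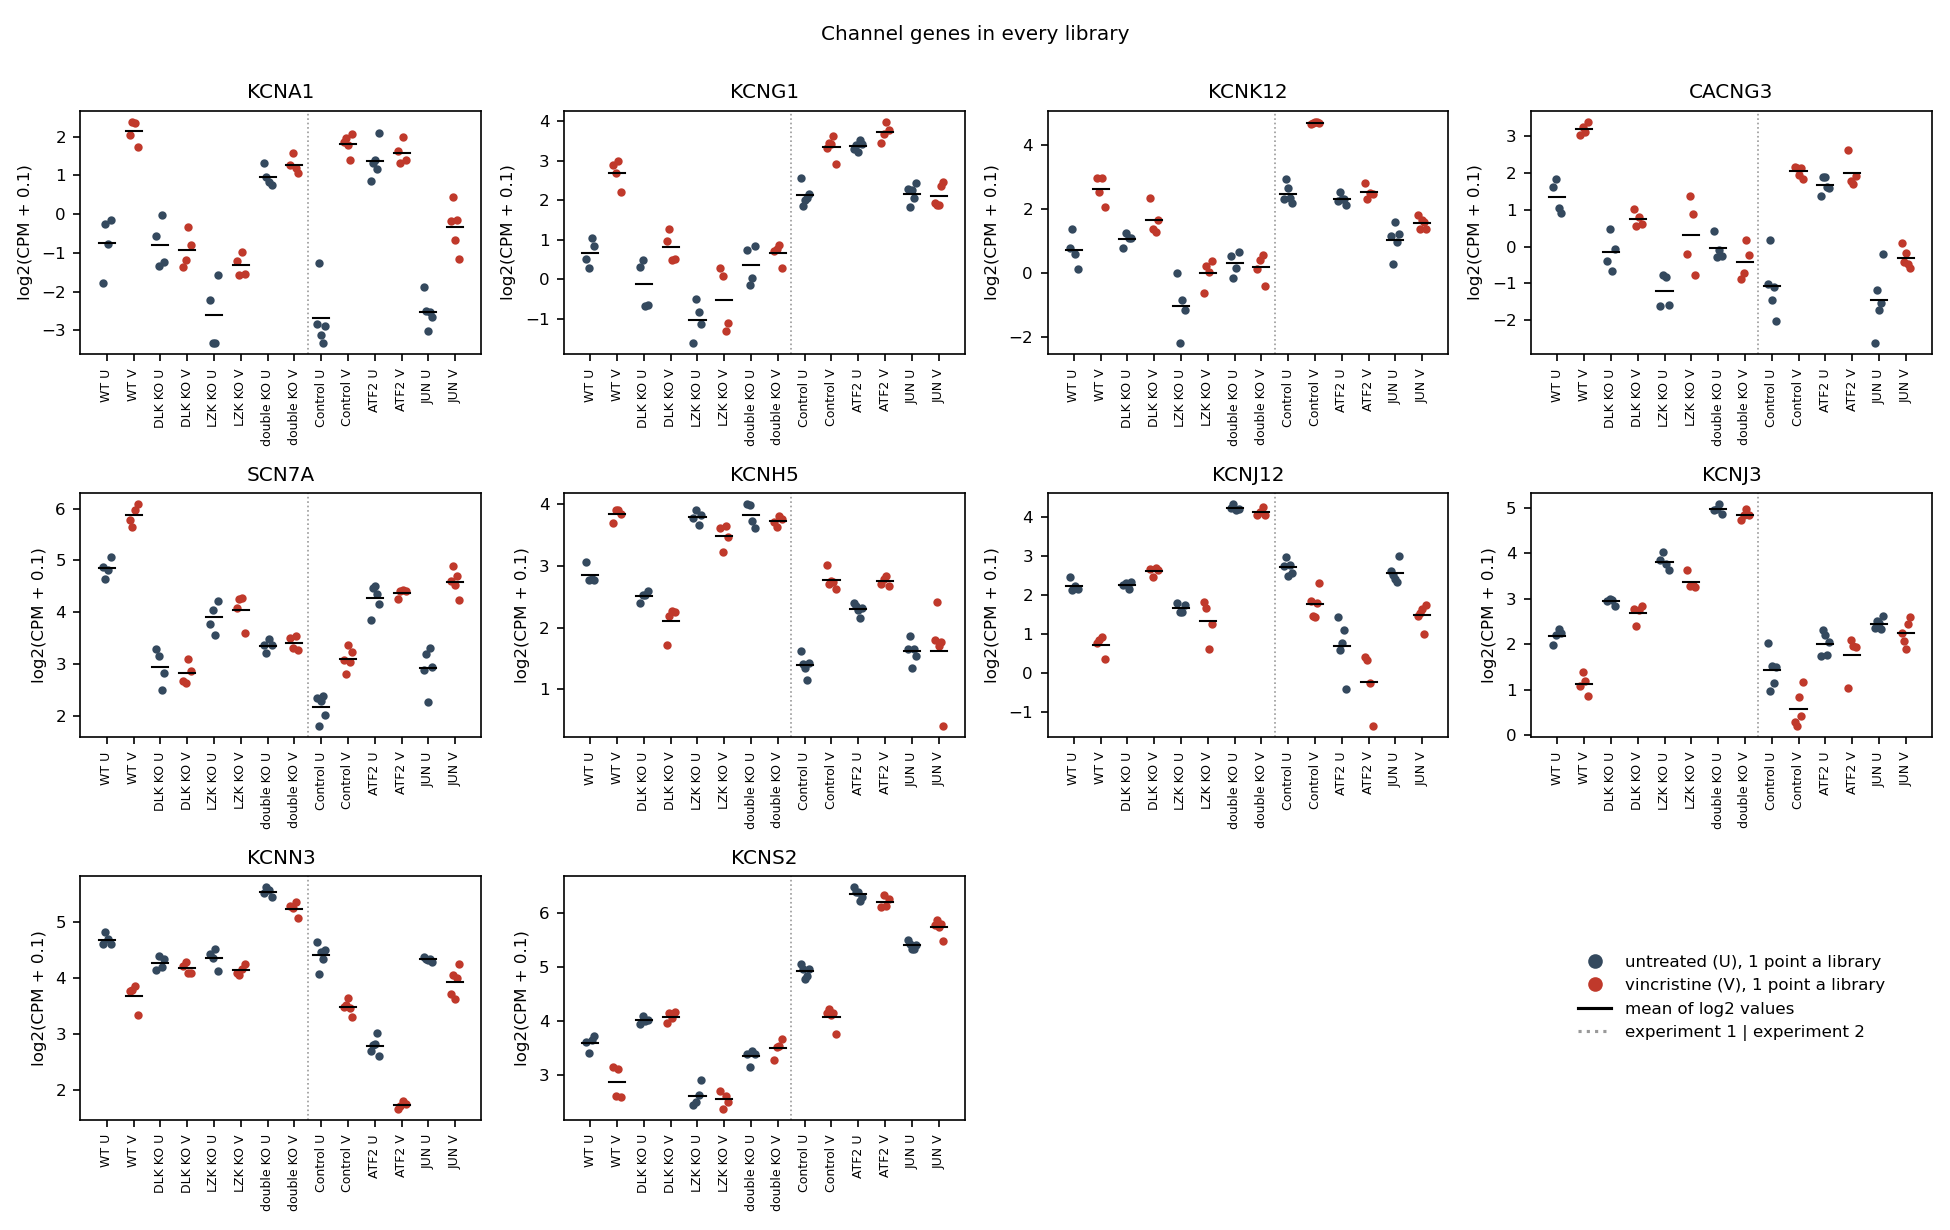
Each library's level of 10 channel genes in all 14 groups, as log2(CPM + 0.1), with untreated and vincristine libraries side by side for each line. KCNA1, KCNK12 and CACNG3 were higher and KCNN3 lower with vincristine in WT and Control gRNA, and KCNK12 was 0.802 to 1.49 CPM untreated and 0.657 to 1.39 with vincristine in the double KO.

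In the double KO, 0 of 100 channel genes were called with vincristine, 9 having an unadjusted p under 0.05. Only 0.0658% of all genes were called there (12 genes), 0.00548% higher and 0.0603% lower. Treated and untreated libraries did not overlap for 15 channel genes (9.94% of all genes). DESeq2 also called 0 channel genes, and edgeR fitted on these groups alone called 7. KCNK12 was 1.35, 0.802, 1.01 and 1.49 CPM untreated and 0.994, 1.23, 1.39 and 0.657 with vincristine, overlapping, at -0.08 ± 0.36. The difference in vincristine effect, double KO minus WT, was called for 27 channel genes, 10 higher and 17 lower (19.4% of all genes, 9.21% higher and 10.2% lower), all sharing the WT libraries. It was -2.63 ± 0.41 for KCNA1, -2.19 ± 0.47 for CACNG3, -2.04 ± 0.45 for KCNK12, 1.44 ± 0.21 for KCNJ12 and 0.96 ± 0.18 for KCNJ3, where a negative value means a lower log2 fold change than in WT. CACNG3 held only 4 to 12 counts a library in the double KO.

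In DLK KO 6 channel genes rose and 2 fell with vincristine, where 6.53% of all genes were called, 4.24% higher and 2.28% lower. In LZK KO there were 5, 3 higher and 2 lower, and 3.88% of all genes, 2.27% higher and 1.61% lower. Libraries of the 2 treatments did not overlap for 26 channel genes in DLK KO (19.5% of all genes) and for 8 in LZK KO (7.79%). The named DLK KO rises were KCNF1 (a silent subunit; 1.14 ± 0.33, adjusted p = 0.033), KCNC4 (a fast Kv3 pore; 0.69 ± 0.19) and CACNG4 (0.46 ± 0.11), and the falls SCN8A (-0.26 ± 0.06) and KCNH7 (-0.25 ± 0.08). Leaving out 1 DLK KO library at a time gave 3 to 10 calls, with 3 each without untreated replicate 1, vincristine replicate 1 or vincristine replicate 4, 4 without untreated or vincristine replicate 2 and 5 without untreated replicate 4 or vincristine replicate 3. SCN8A was at -0.22 and not called without untreated replicate 2. KCNF1 was not called without any of 6 of the 8 libraries (0.99 to 1.11), KCNC4 without any of 4 (0.63 to 0.68) and KCNH7 without any of 7 (-0.27 to -0.22), nor without the filter on low counts (-0.26) or with a replicate block (-0.25). In LZK KO, CACNG3 rose by 1.92 ± 0.46 (adjusted p = 0.0098), at 0.227, 0.481, 0.463 and 0.235 CPM untreated and 0.776, 2.49, 1.74 and 0.484 with vincristine. Its groups did not overlap by a narrow margin, and the call was lost without vincristine replicate 2, at 1.5. KCNJ5 rose by 0.81 ± 0.21, a call lost without untreated replicate 4 at 0.77, and KCNS3 by 0.41 ± 0.10, lost without the filter on low counts at 0.41 and in a fit of these groups alone at 0.42. KCNJ3 fell by 0.44 ± 0.11, not called without untreated replicate 2 or without vincristine replicate 2, 3 or 4 (-0.41 to -0.36), nor without the filter (-0.44) or in the fit of these groups alone (-0.43), and KCNH7 by 0.37 ± 0.074, lost in the latter at -0.36.

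The difference in vincristine effect from WT was called for 29 channel genes in DLK KO, 14 higher and 15 lower (19.4% of all genes, 9.95% higher and 9.41% lower), and 18 in LZK KO, 8 higher and 10 lower (12.4% of all genes, 5.88% higher and 6.53% lower), again against the same WT libraries. KCNJ12 was at 1.90 ± 0.22 and 1.25 ± 0.26 and KCNN3 at 0.89 ± 0.14 and 0.76 ± 0.14. Within the lines, vincristine gave 0.36 ± 0.14 and -0.29 ± 0.18 for KCNJ12 and -0.10 ± 0.096 and -0.23 ± 0.099 for KCNN3, none of them called. KCNH5 was at -1.39 ± 0.18 and -1.29 ± 0.16, KCNE1 at -1.61 ± 0.48 and -1.69 ± 0.50, calls lost without DLK KO untreated replicate 1 (at -1.36) and, for LZK KO, without WT untreated replicate 2 or vincristine replicate 3 (at -1.44 and -1.54) or the filter on low counts (at -1.68). KCNA1 was at -3.19 ± 0.56 in DLK KO, where it held only 3 to 10 counts a library untreated and 3 to 8 with vincristine. Its LZK KO level was 0 to 0.409 CPM in both treatments, 0 to 4 counts a library, so no fold is given.

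With ATF2 gRNA 12 of 110 channel genes were called with vincristine, 4 higher and 8 lower, where 6.10% of all genes were called, 1.88% higher and 4.22% lower. The libraries did not overlap for 12 channel genes (7.36% of all genes). KCNN3 fell from 6.40, 6.92, 6.95, 7.99 and 6.04 CPM to 3.09, 3.19, 3.41 and 3.26, at -1.09 ± 0.12 (adjusted p = 1.3e-08), with no overlap. SCN1A fell by 1.05 ± 0.31 (adjusted p = 0.032) and KCNJ12 by 0.95 ± 0.30 (adjusted p = 0.046), and neither was called in every fit that left out 1 library: SCN1A was lost without untreated replicate 2, 3 or 5 or vincristine replicate 3, 4 or 5 (-1.05 to -0.83), and KCNJ12 without untreated replicate 1, 2, 3 or 4 or vincristine replicate 4 or 5 (-1.01 to -0.66). The called rises included CACNA1H, a T-type pore, by 0.39 ± 0.061, KCNMB4, a BK subunit, by 0.32 ± 0.072, and KCND3 by 0.33 ± 0.098, lost without untreated replicate 1, 4 or 5 or vincristine replicate 2 or 3 (0.24 to 0.32). A fit of these groups alone called none of SCN1A (-1.04), KCNJ12 (-0.95) and KCND3 (0.34), and KCNJ12 was also lost with RLE factors (-0.94) and a replicate block (-0.91). KCNA1, KCNK12 and CACNG3 were not called. The difference from Control gRNA was -5.39 ± 0.63 for KCNA1, -2.88 ± 0.50 for CACNG3 and -1.99 ± 0.21 for KCNK12, among 33 called channel genes, 18 higher and 15 lower (20.6% of all genes, 10.2% higher and 10.4% lower). It was 1.71 ± 0.52 for CACNG5, a call lost in a fit of these groups alone at 1.73, and 0.86 ± 0.27 for KCNH3, lost without ATF2 gRNA vincristine replicate 4 at 0.54.

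KCNA1, CACNG3 and KCNG1, which rose in Control gRNA and were not called in ATF2 gRNA, were higher in untreated ATF2 gRNA than in untreated Control gRNA. KCNA1 was 1.70, 2.40, 2.53, 2.14 and 4.14 CPM in untreated ATF2 gRNA, above every untreated Control gRNA library, and 2.98, 2.39, 3.90 and 2.54 with vincristine, overlapping treated Control gRNA (2.54 to 4.10). CACNG3 was 2.52, 3.64, 3.59, 2.99 and 2.91 CPM untreated and 6.04, 3.36, 3.14 and 3.70 with vincristine. KCNG1 was 9.26 to 11.3 CPM untreated, against 7.40 to 12.3 in treated Control gRNA. For KCNK12 the untreated levels were not called different. It was 4.72, 5.66, 4.91, 4.84 and 4.31 CPM in untreated ATF2 gRNA, overlapping the untreated Control gRNA, and was not called with vincristine.

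With JUN gRNA 18 of 110 were called, 10 higher and 8 lower, and 15.9% of all genes, 7.58% higher and 8.31% lower. The libraries did not overlap for 13 (11.8% of all genes). KCNA1 still rose, from 0.172, 0.0757, 0.0238, 0.0728 and 0.0596 CPM to 0.780, 1.25, 0.532, 0.801 and 0.352, at 3.20 ± 0.47 (adjusted p = 1.7e-06). Every treated JUN gRNA library lay below every treated Control gRNA library. The difference was -2.38 ± 0.74 (adjusted p = 0.021). It was -1.89 and not called without JUN gRNA untreated replicate 1, and -3.90 without Control gRNA untreated replicate 2. SCN7A rose more than in Control gRNA by the test of the difference, from 7.34, 9.11, 4.71, 9.77 and 7.64 CPM to 24.1, 29.6, 23.1, 25.9 and 18.7, at 1.66 ± 0.15, a difference of 0.72 ± 0.22 (adjusted p = 0.019) that was not called without the filter on low counts, at 0.69. KCNS2 rose by 0.34 ± 0.07 where it fell in Control gRNA, a difference of 1.17 ± 0.10 (adjusted p = 6e-13). KCNK12 was 2.12, 1.12, 2.91, 1.88 and 2.24 CPM untreated and 3.4, 2.53, 3.08, 2.94 and 2.49 with vincristine, a difference of -1.73 ± 0.21. The JUN gRNA difference was called for 37 channel genes, 21 higher and 16 lower (15.8% of all genes, 8.71% higher and 7.06% lower). CACNG3 rose by 1.20 ± 0.38 (adjusted p = 0.022), a call lost without untreated replicate 1, 3 or 4 or vincristine replicate 1 (0.93 to 1.12) and in a fit of these groups alone (1.18), and its difference was -2.06 ± 0.52. The ATF2 and JUN comparisons share the Control gRNA libraries. The heat map of all lines shows the responses side by side.

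**Figure D4:**
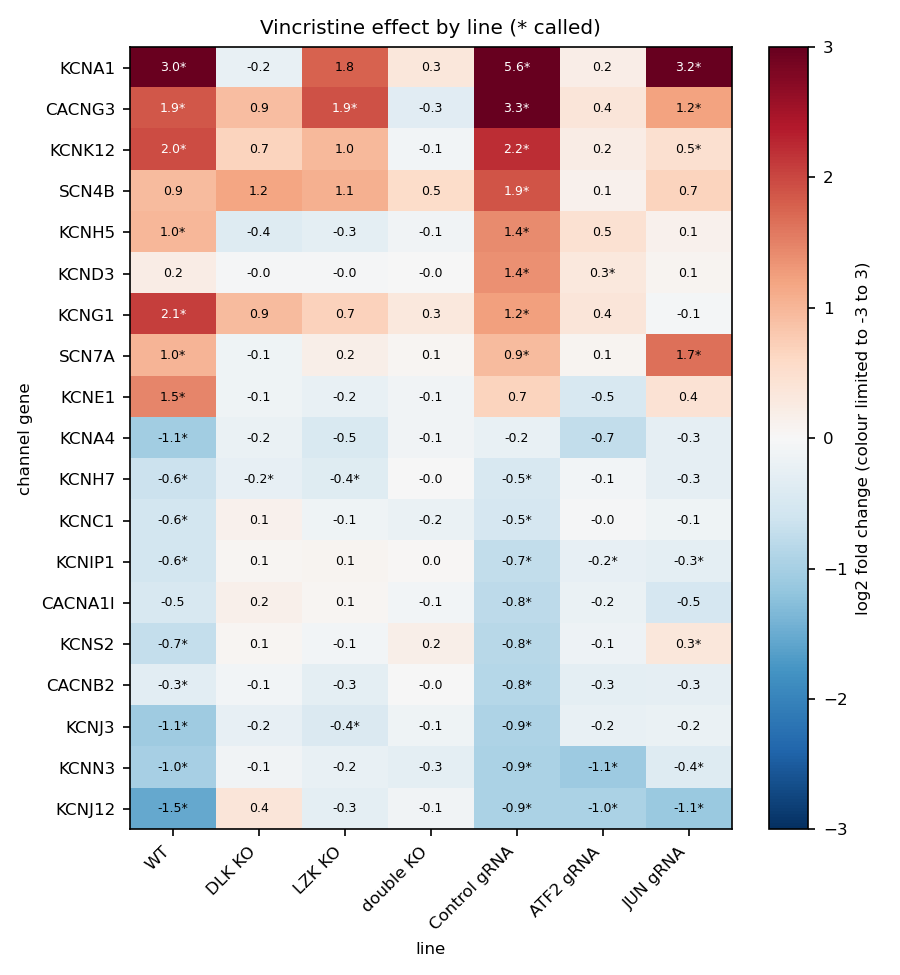
Vincristine effect on 19 channel genes (rows) in the 7 lines (columns), coloured by log2 fold change, with stars on called values. WT and Control gRNA show 2.97 and 5.58 for KCNA1 and -0.99 and -0.94 for KCNN3, and the double KO has no star.

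Without vincristine the lines differed widely. In DLK KO 58 of 100 channel genes were called against WT, 21 higher and 37 lower (34.5% of all genes, 16.5% higher and 17.9% lower). In LZK KO it was 58, 20 higher and 38 lower (33.9% of all genes, 17.1% higher and 16.8% lower), and in the double KO 65, 44 higher and 21 lower (45.7% of all genes, 23.6% higher and 22.1% lower). Libraries did not overlap with WT for 58 channel genes in DLK KO (36.6% of all genes), 55 in LZK KO (30.8%) and 67 in the double KO (47.2%). These comparisons share the WT libraries. Potassium channel genes carried most of the double KO's higher calls: 34 were higher and 11 lower of 63, with a median log2 fold change of 0.45. The pore-forming ones were 28 higher and 7 lower of 47, at a median of 0.64. In LZK KO 0 sodium channel genes were higher and 8 of 12 lower.

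K2P channels and inward rectifiers, which set the resting potential, held some of the largest untreated differences. KCNK10, a K2P channel, was 10.1, 8.39, 7.16 and 9.14 CPM in WT and 63.6, 63.6, 66.3 and 65.8 in the double KO, at 2.91 ± 0.098 (adjusted p = 7.8e-24), with every double KO library far above WT. KCNJ3 was 3.82, 4.47, 4.92 and 4.67 CPM in WT, 7.65, 7.88, 7.78 and 7.10 in DLK KO, 14.3, 16.2, 13.5 and 12.2 in LZK KO and 31.0, 31.5, 33.7 and 29.0 in the double KO. These 4 sets of libraries do not overlap, and the log2 fold changes from WT were 0.76 ± 0.13, 1.64 ± 0.12 and 2.80 ± 0.11. KCNJ2, the classical strong inward rectifier, was 0 to 6 counts a library in WT and 33 to 43 in the double KO, a fitted value of 3.29 ± 0.35. KCNJ5, a partner of KCNJ3 in G-protein-gated channels, was at 1.34 ± 0.36, 2.91 ± 0.30 and 2.61 ± 0.30, while KCNJ9, another such subunit, was at -1.69 ± 0.18 in the double KO. KCNK9, a K2P channel, was at 2.51 ± 0.28 in DLK KO and 2.65 ± 0.28 in the double KO and was not called in LZK KO (-0.78 ± 0.45).

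In DLK KO, CACNA1G, a T-type pore, was 0.956, 1.49, 1.62 and 2.09 CPM in WT and 7.36, 7.38, 6.72 and 6.24 in DLK KO, at 2.16 ± 0.24 (adjusted p = 1.9e-09). The groups did not overlap, and it was also called in LZK KO (1.13 ± 0.27) and the double KO (0.95 ± 0.26). KCNC1, CACNA1G, KCNJ2, KCNJ5 and KCNK10 also have genes across them on the other strand, and their counts may include reads of those genes.

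KCNC2 (chr12:75040077-75209868, minus strand), a Kv3 pore that allows fast firing, was far lower in each knockout. It was 58.1, 55.4, 59.0 and 56.0 CPM in untreated WT, 6.41, 6.78, 6.10 and 7.53 in DLK KO, 8.07, 8.30, 7.77 and 10.0 in LZK KO and 6.24, 6.98, 7.21 and 6.61 in the double KO. The log2 fold changes were -3.09 ± 0.10, -2.75 ± 0.10 and -3.07 ± 0.10 (adjusted p = 3.5e-24, 4e-23 and 5.6e-25), with every knockout library below every WT library. KCND2 (chr7:120273668-120750331, plus strand), an A-type pore, was 77.0, 75.2, 70.9 and 77.4 CPM in WT and 25.0 to 32.6 in the knockouts, at -1.36 ± 0.08, -1.33 ± 0.08 and -1.29 ± 0.07. The genes within 5 Mb of KCNC2 had medians of 0.13, 0.22 and 0.10 in the same comparisons, so its neighbours were not lower with it. Those of KCND2 had 0.29, 0.21 and -0.01. KCNQ3, an M-current pore, was higher, by 1.21 ± 0.10, 3.42 ± 0.10 and 2.34 ± 0.10, and CACNA2D3, an alpha2delta subunit, by 2.20 ± 0.23, 2.66 ± 0.22 and 2.58 ± 0.22. KCNS3, a silent subunit, was at -0.92 ± 0.084, -1.93 ± 0.092 and -3.50 ± 0.10, with 39.5 to 42.8 CPM in WT and 2.81 to 4.33 in the double KO.

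The sodium channel cluster on chromosome 2 was lower in untreated DLK KO together with the genes around it. SCN2A (chr2:165194993-165392310, plus strand) was 247, 236, 239 and 251 CPM in WT and 115, 96.8, 91.6 and 98.1 in DLK KO, at -1.28 ± 0.08. SCN3A was at -1.04 ± 0.075, SCN1A at -0.88 ± 0.14, SCN9A at -1.64 ± 0.076, SCN7A at -1.90 ± 0.15 and KCNH7, an ERG channel in the same stretch, at -1.24 ± 0.073. Within 5 Mb of SCN2A, 36 other genes had a median of -0.90, and 80.6% of them were called lower, so the 5 sodium channel genes were lower along with most of their neighbours. KCNJ3, in the same stretch, was higher by 0.76 ± 0.13 while its 30 neighbours had a median of -0.92. In LZK KO the neighbours of SCN2A had a median of 0.01. Untreated LZK KO libraries nevertheless held 856 to 1007 counts of SCN9A (2899 to 3809 in WT) and 119 to 158 of SCN7A (268 to 397). SCN2A had 1561 to 1829 (2525 to 3408) and SCN1A 47 to 71 (93 to 149). SCN3A had 3259 to 3606 (4001 to 5720), but its share of all counts overlapped between the lines. LZK KO replicate 2 held 3606 counts of SCN3A in 8.435 M, and WT replicate 4 held 4001 in 10.077 M. These counts are not scaled for depth, which was 8.4 to 10.9 M in LZK KO and 10.1 to 14.6 M in WT. The plot of the chromosome 2 stretch shows the DLK KO values.

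**Figure D5:**
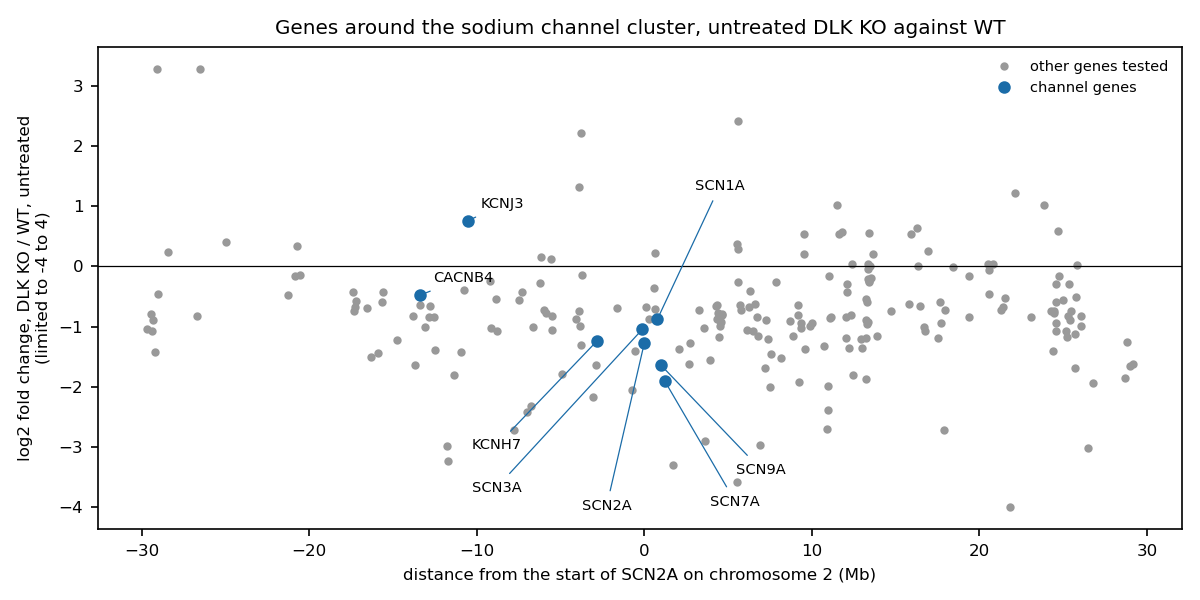
Untreated DLK KO against WT for each tested gene within 30 Mb of the start of SCN2A: distance from that start in Mb (x) and log2 fold change (y, limited to the range shown), channel genes marked. SCN2A is at -1.28, and its 36 neighbours within 5 Mb had a median of -0.90.

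The double KO had other such stretches. SCN3B, on chromosome 11, was 218, 222, 213 and 246 CPM in WT and 90.6, 91.7, 93.8 and 88.8 in the double KO, at -1.30 ± 0.06, and its 86 neighbours had a median of -0.92. The 88 neighbours of CACNG3 had -0.97, and CACNG3 itself -1.52 ± 0.31. CACNG3 was also called lower in untreated LZK KO, at -2.78, with 2 to 5 counts a library against 18 to 37 in WT. In untreated DLK KO it held 6 to 13 counts a library. The cause of the shifts in these stretches was not tested.

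In untreated ATF2 gRNA 72 of 110 channel genes were called against Control gRNA, 28 higher and 44 lower (39.9% of all genes, 19.7% higher and 20.2% lower), and in JUN gRNA 28, 11 higher and 17 lower (11.2% of all genes, 5.78% higher and 5.46% lower). Libraries did not overlap with Control gRNA for 56 (29.4% of all genes) and 19 (9.22%). In ATF2 gRNA, KCNA1 was at 5.16 ± 0.49, CACNG3 at 2.89 ± 0.37 and SCN7A at 2.12 ± 0.16 on the log2 scale. KCNAB1, a Kv1 beta subunit, was at -2.02, KCNJ12 at -1.96 ± 0.25, the T-type pore CACNA1I at -1.70 and KCNN3 at -1.63 ± 0.10. Summed inhibitory neuron markers were 22.2 to 26.2 CPM in untreated ATF2 gRNA, 1.25 to 1.79 in JUN gRNA and 0.489 to 1.5 in Control gRNA. In untreated experiment 1 they were 0.596 to 1.49 in WT, 2.49 to 4.21 in DLK KO, 3.73 to 4.44 in LZK KO and 8.98 to 10.8 in the double KO. Their part in the channel differences was not tested. In JUN gRNA, KCNA4, a Kv1 pore, was at 1.21, KCNJ3 at 1.00 ± 0.20 and KCNT1, a sodium-activated channel, at 0.79, while KCNK12 was at -1.43 ± 0.15, KCNAB1 at -1.42 and SCN4B at -1.19 ± 0.26. The KCNA4 call was lost without Control gRNA untreated replicate 2 or 4 or JUN gRNA untreated replicate 4 (1.04 to 1.21), and the KCNT1 call without any of 8 of the 10 libraries (0.65 to 0.82), without the filter (0.80) or with a replicate block (0.78).

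Proteins that place or regulate these channels, from a list of 24, were 8 higher and 2 lower of 23 tested with vincristine in WT (15.7% and 14.5% of all genes) and 8 higher and 7 lower in Control gRNA (17.1% and 18.1% of all genes). STAC, an adaptor of calcium channels, rose by 1.30 and 1.41, REST, the repressor that silences neuronal channel genes, by 0.74 and 0.52, and SPTBN4, a spectrin of the axon's initial segment, by 0.69 and 0.63. DPP10, a partner of Kv4 channels, fell by 0.36 and 0.45. Of ion pumps and exchangers, ATP2B4, a plasma membrane calcium pump, rose by 1.17 and 0.76 and ATP2B2, another, fell by 0.98 and 0.95. RYR3, a calcium release channel, rose by 0.85 and 0.55, and ITPR1 rose by 1.15 in Control gRNA.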

How the data were processed

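The deposited tables, 1 per experiment, hold raw counts per gene made by the authors: whole numbers per Ensembl gene whose totals differ between libraries. Per the submitters' processing notes, cutadapt 3.4, STAR and featureCounts of Subread 2.0.1 were used with GRCh38. The strand setting is not given in the sources used here. GENCODE 29 gave the symbols. All groups of an experiment entered 1 edgeR 4.0.16 quasi-likelihood fit (TMM, filterByExpr, 1 mean per group, R 4.3.3). 2-sided p-values were adjusted by Benjamini-Hochberg over all genes of each of 17 comparisons and called under 0.05. SEs are the log2 fold change over the square root of F. Other settings were DESeq2 1.42.0, other scaling and filters, a replicate block and each library left out. Named genes were the 4 highest per ion, up to 8 called genes per direction in WT and Control gRNA and 3 elsewhere (mean log2 CPM of at least 0), and the HCN, KCNQ and main SCN genes; others were named after their values were seen, and a few that the rule names are not reported here, though family counts and sums include them. Members and lists were chosen with earlier results of these data known.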

Additional observations from a re-analysis of the deposited data

Results flagged for a closer look

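In 10 of 176 groups checked (5.68%; chance gives about 1 in 20) 1 library stood far from the others of its group. In untreated WT, KCNE1 was 0.373 CPM in replicate 2 (others 1.09 to 1.15), KCNH5 was 8.22 in replicate 1 (others 6.71 to 6.81) and CACNA1I was 11.4 in replicate 1 (others 15.0 to 15.7). With vincristine, KCNIP1 was 31.8 in WT replicate 3. KCNJ3 was 12.4 CPM in LZK KO vincristine replicate 1 (others 9.56 to 9.82). In Control gRNA untreated replicate 2, KCNA1 was 0.317 (others 0 to 0.0415) and CACNG3 was 1.03 (others 0.145 to 0.395). KCNH7 was 33.4 in Control gRNA untreated replicate 3 and 15.9 in vincristine replicate 5, and KCNS2 was 13.5 in vincristine replicate 5.

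The vincristine effect differed from that of the control line by the edgeR test of the difference itself, in log2, for these genes. DLK KO minus WT was 1.90 for KCNJ12, 0.89 for KCNN3, -3.19 for KCNA1, -1.61 for KCNE1 and -1.39 for KCNH5. LZK KO minus WT was 1.25 for KCNJ12, 0.76 for KCNN3, -1.69 for KCNE1, -1.29 for KCNH5 and -1.22 for SCN11A. The double KO minus WT was 1.44 for KCNJ12, 0.96 for KCNJ3, -2.63 for KCNA1, -2.19 for CACNG3 and -2.04 for KCNK12. ATF2 gRNA minus Control gRNA was 1.71 for CACNG5, 0.86 for KCNH3, -5.39 for KCNA1, -2.88 for CACNG3 and -1.99 for KCNK12. JUN gRNA minus Control gRNA was 1.17 for KCNS2, 0.72 for SCN7A, -2.38 for KCNA1, -2.06 for CACNG3 and -1.73 for KCNK12.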

How the results depend on the processing

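Of 112 called values of named genes, 88 kept their call and direction under every alternative run, 24 lost the call in at least 1 and 0 reversed. Fitting only the groups compared gave 25 called channel genes for vincristine in DLK KO (8 with all groups), 1 in LZK KO (5), 7 in the double KO (0) and 7 in ATF2 gRNA (12); without the filter on low counts LZK KO had 3. Leaving out 1 library gave 3 to 10 calls in DLK KO. Values that were not called changed sign without 1 library. Over these fits in WT, SCN3A ran from -0.11 to 0.027 (above 0 without vincristine replicate 1 or, at 0.017, replicate 2), SCN8A from -0.066 to 0.040 (replicate 2), HCN4 from -0.048 (replicate 1) to 0.30 and HCN2 from -0.33 to 0.036 (replicate 4). SCN3A in Control gRNA ran from -0.12 to 0.011 (untreated replicate 3). The cause was not tested. The replicate numbers did not pair samples: deviations of libraries with the same number correlated at a median of 0.00, and a replicate block gave 33 calls in WT, 6 in DLK KO and 49 in Control gRNA. Experiment 1 was less deeply sequenced, which limits genes of few counts. KCNA1 held few counts in the deeper experiment 2 as well, at 0 to 12 a library in untreated Control gRNA. Over the fits its vincristine effect ran from 5.25 to 7.10 in Control gRNA and from 2.71 to 3.16 in WT.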

Other observations

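Ion pumps, exchangers and calcium release channels, which are not channel genes by the symbol rule, were read beside them. Of 16 pump and exchanger genes tested in WT, 1 rose and 6 fell with vincristine (15.7% and 14.5% of all genes), and of 17 in Control gRNA, 2 rose and 9 fell (17.1% and 18.1% of all genes), with a median log2 fold change of -0.16 in each. ATP2B3, a calcium pump, was at -0.55 in Control gRNA. Of 6 calcium release channels tested, 1 rose and 1 fell in WT, RYR3 and ITPR2 (-0.54), and 2 rose in Control gRNA.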
